A study of Homo sapiens with 4 samples.

Results

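The insulin-like growth factor (IGF) axis was followed in A549, an established line of human lung adenocarcinoma cells, with and without knockdown of NUPR1, a small stress-induced chromatin protein also called p8. It was read from 10 named genes among the 19399 rows used from the deposited count table. These were 2 ligand genes (IGF2 and INS-IGF2), 2 receptor genes (IGF1R and INSR) and 6 binding protein genes (IGFBP1, IGFBP2, IGFBP3, IGFBP4, IGFBP6 and IGFBP7). The genes were taken by name, with their values in these columns already known, so each ratio describes the columns and none was tested. The groups were A549 cells with p8 knockdown and A549 control cells, each with 2 libraries of polyadenylated RNA, 1 sequenced single-end and 1 paired-end. The knockdown reagent, the time after it, the treatment of the control cells and any separation into independent cultures are not stated by the labels. Each group is 1 column, taken to combine both libraries because its name shares its start with both titles. With 1 column per group, no spread between replicates could be measured.

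IGF1 and IGF2 are secreted growth factors that activate the receptor tyrosine kinase IGF1R, and IGF2 also activates a splice form of the insulin receptor. Activated receptors recruit adaptors such as IRS1 and SHC1, which pass the signal to the PI3K and AKT kinases and to the MAP kinases, and AKT keeps FOXO transcription factors out of the nucleus. The IGF binding proteins hold the growth factors outside the cell with an affinity like that of the receptor, and proteases that cut the binding proteins set them free. In lung adenocarcinoma the axis is known as a source of growth and survival signals.

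Total reads were 16635336 after knockdown and 20289107 in control cells. Levels of a gene are compared between columns as CPM (reads relative to the TMM-scaled column total), with 95% Poisson intervals. Levels of different genes are compared as deposited RPKM, which divides by gene length. Ratios are log2 of knockdown CPM over control CPM with 95% exact intervals. All intervals cover counting error only, and a difference outside them is a difference between these columns. Whether both ends of a paired-end fragment were counted separately is not given. If they were, the intervals are too narrow even for counting error. NUPR1, the targeted gene, had 71 reads after knockdown and 197 in the control column, a log2 ratio of -1.21 (-1.63 to -0.81). The keratin genes KRT8 and KRT18 of simple epithelium were at 10479 and 9129 CPM after knockdown and 8775 and 8071 CPM in the control column, while EPCAM was at 4.05 and 4.18 CPM. The other epithelial markers differed in opposite directions, with a log2 ratio of 0.73 (0.60 to 0.86) for CDH1, which encodes E-cadherin, and -0.81 (-1.61 to -0.04) for KRT19. The 5 alveolar type 2 markers summed to 7.98 CPM after knockdown and 6.37 CPM in the control column. The summed markers of other cell types were 3.22 and 2.69 CPM for fibroblasts and 1.67 and 0.547 CPM for endothelium. They were 0.953 and 0.597 CPM for leukocytes and 0.238 and 0.299 CPM for hepatocytes. The endothelial markers differed in both directions. CDH5 had 18 reads after knockdown and 3 in the control column, a log2 ratio of 2.84 (1.07 to 5.25). VWF had 10 and 6 reads, and PECAM1 had 0 and 2. The hepatocyte marker TTR had 0 reads in the knockdown column. Of the 14175 genes that passed the low-count filter, 50.04% were higher in the knockdown column, the median log2 ratio was 0.00030 and the 5th and 95th percentiles were -0.86 and 0.75.

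The ligand reads were fewer in the knockdown column, one binding protein gene was several-fold higher there, and the receptors were at nearly the same level in both columns. Of the 10 genes, 9 passed the low-count filter, and the same number had a mean of at least 5 CPM. IGF2 did not pass. Among those 9 genes, IGFBP1 was at least 2-fold higher and INS-IGF2 at least 2-fold lower in the knockdown column. In the whole table, 0.992% of the 10689 genes with a mean of at least 5 CPM were 2-fold higher and 1.13% were 2-fold lower. At 1.5-fold, IGFBP4 joined the lower genes, against a background of 3.72% higher and 4.44% lower. Because the genes were chosen on this contrast, nothing was read from these counts. After knockdown 4 of the 9 genes stood higher and 5 stood lower, and the median log2 ratio was -0.10. In RNA from a bulk culture, fewer cells that carry a transcript and less transcript per cell cannot be told apart.

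**Figure D1:**
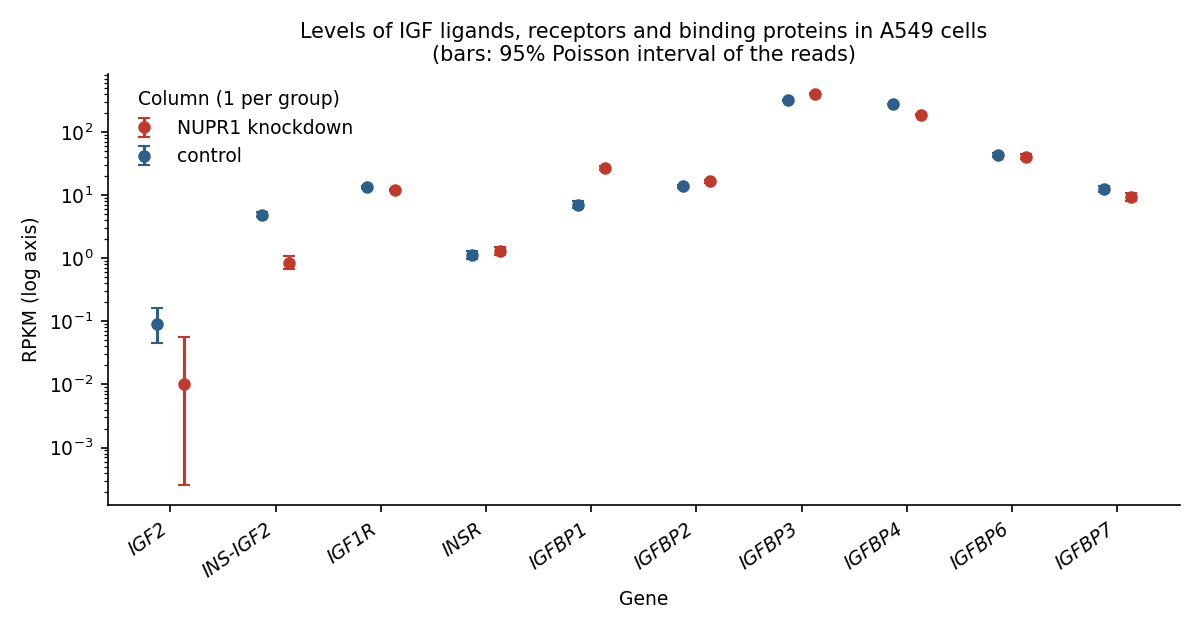
Deposited RPKM (log axis) of the 10 genes in the control column (blue) and the knockdown column (red), with bars for the 95% Poisson interval of the reads. The levels span IGF2, at 0.09 RPKM in the control and 0.01 RPKM in the knockdown column, to IGFBP3, at 318 RPKM in the control and 405 RPKM in the knockdown column, and the points of INS-IGF2 and IGFBP1 lie furthest apart among the genes that passed the low-count filter.

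**Figure D2:**
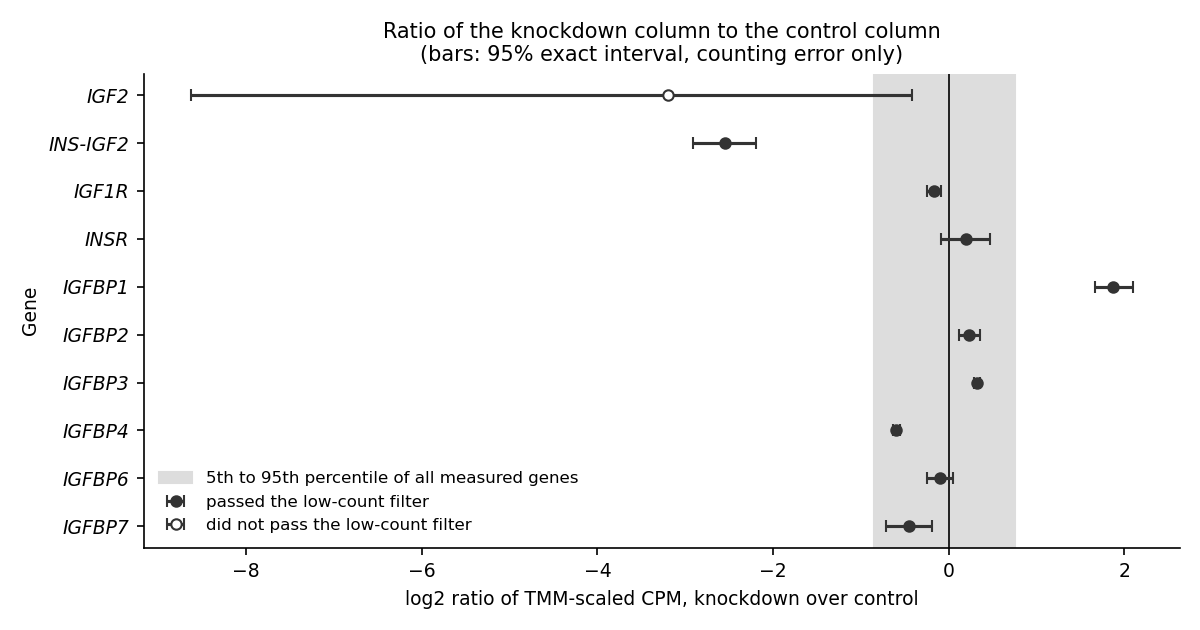
Log2 ratio of TMM-scaled CPM, knockdown over control, for each gene with its 95% exact counting interval; the open symbol is IGF2, which did not pass the low-count filter, and the grey band runs from -0.86 to 0.75, the 5th to 95th percentiles of all measured genes. INS-IGF2 at -2.55 and IGFBP1 at 1.87 lie outside the band, and the other 7 genes that passed the filter lie inside it.

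INS-IGF2 carried almost all the ligand reads. It is a readthrough gene on chromosome 11 whose transcript starts at the insulin gene INS and runs on into IGF2, and it had 75 reads after knockdown and 525 in the control column. These were 4.47 CPM (3.51 to 5.60) and 26.1 CPM (23.9 to 28.5), or 0.85 and 4.89 RPKM. The intervals lie well apart, but the gene was taken with its low knockdown value already known. Its ratio and rank therefore describe the columns and support nothing further. Its mean of 15.3 CPM passed 5 CPM only through the control column. The log2 ratio came to -2.55 (-2.92 to -2.20), which is 5.85-fold lower, and 0.268% of all measured genes had a lower ratio. On the log2(RPKM + 1) scale the ratio was -1.67. IGF2 itself, which encodes the fetal growth factor IGF-II and is expressed from the paternal allele in most tissues, had 1 read after knockdown and 11 in the control column. Its log2 ratio of -3.20 (-8.63 to -0.42) pointed the same way as that of INS-IGF2, with an interval that covers a wide range of sizes. The deposited table has no row for INS.

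The pair of rows cannot be read as separate genes. In GENCODE release 29, on GRCh38, the readthrough transcript has 7 exons and 1706 bases, of which 246 lie in INS exons and 1460 (85.6%) in IGF2 exons, so most reads from it could also come from IGF2. The deposited gene lengths were 5361 bases for INS-IGF2 and 6395 bases for IGF2, and the authors' way of assigning shared reads is not stated by the sources used here. The reads in both rows summed to 76 after knockdown and 536 in the control column, 4.53 CPM (3.57 to 5.66) and 26.7 CPM (24.5 to 29.03). The summed log2 ratio was -2.56 (-2.93 to -2.21), or 5.89-fold lower in the knockdown column. INS-IGF2 held 98.7% of the summed reads after knockdown and 97.9% in the control column. The stretch below is positions 187 to 276 of the transcript and is shown because it holds the join that the readthrough alone has: the last 60 bases from the insulin side are in lower case and the first 30 from the IGF2 side in capitals.
INS-IGF2 junction: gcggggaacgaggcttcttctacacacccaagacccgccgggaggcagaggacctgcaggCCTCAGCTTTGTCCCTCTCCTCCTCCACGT
A read across this junction would show the readthrough, whereas reads on either side of it could come from INS or IGF2. The tables give reads per gene and not per position, so junction reads were not counted.

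The readthrough starts at the insulin promoter. The RefSeq promoter of INS-IGF2 on GRCh38.p14 (chr11:2161160-2161459, minus strand, 300 bases around the start) is letter for letter that of INS, and is printed to show which start the annotation gives to the ligand row that held the reads. Capitals mark TATAAA, a form of the TATA box, which begins 30 bases before the start.
INS-IGF2 promoter: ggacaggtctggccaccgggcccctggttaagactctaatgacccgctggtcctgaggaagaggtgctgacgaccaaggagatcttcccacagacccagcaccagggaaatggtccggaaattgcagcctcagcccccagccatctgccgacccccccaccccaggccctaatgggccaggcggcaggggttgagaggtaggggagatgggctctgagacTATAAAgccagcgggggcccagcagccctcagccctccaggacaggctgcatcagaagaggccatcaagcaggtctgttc
TATAAA, searched on both strands, occurs in 11.6% of the 34796 promoters of the same 300 bases in the RefSeq table. Whether these cells used this start or a start of IGF2 cannot be seen from reads per gene.

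Other ligand genes were scarce. IGF1, the liver-derived growth factor of postnatal life, had 3 reads after knockdown and 0 in the control column, and IGF2-AS, transcribed from the opposite strand of IGF2, had 2 and 0. Both are at or under the floor of 3 reads, so no fold is given. Whether the authors counted by strand is not given, so antisense reads cannot be told apart from those of IGF2. H19, the noncoding RNA expressed from the maternal allele near IGF2, was abundant, with 1038 reads after knockdown and 2161 in the control column (26.5 and 45.1 RPKM). Its log2 ratio was -0.80 (-0.91 to -0.69), lower in the knockdown column as the ligand reads were, and it was the only 1 of the 4 genes in the list of other ligands and neighbours of the locus to pass the low-count filter.

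The receptors differed little between the columns. IGF1R, the main signalling receptor of both IGFs, had 2260 reads after knockdown and 3034 in the control column, or 135 CPM (129 to 140) and 151 CPM (146 to 156). The log2 ratio of -0.17 (-0.25 to -0.09) is a level 1.12-fold lower after knockdown. INSR, the insulin receptor, had 211 and 221 reads, or 12.6 CPM (10.9 to 14.4) and 10.996 CPM (9.59 to 12.5), and its log2 ratio of 0.19 (-0.09 to 0.47) had an interval that includes 0. IGF1R was the more abundant receptor per length in both columns, at 12.15 RPKM against 1.31 RPKM for INSR after knockdown and 13.36 against 1.12 RPKM in the control column. The RPKM ratio of IGF1R to INSR was 9.27 after knockdown and 11.9 in the control column. IGF2R, which carries IGF2 to the lysosome and does not signal as IGF1R does, was at 17.86 and 17.58 RPKM. Its log2 ratio was -0.01 (-0.08 to 0.07) and turned to 0.02 with column totals, so no direction is given. INSRR, the insulin receptor-related receptor, has no row. In the control column INS-IGF2 stood above INSR per length (4.89 RPKM, 4.48 to 5.33, against 1.12 RPKM, 0.977 to 1.28), and in the knockdown column it stood below it (0.85 RPKM, 0.669 to 1.07, against 1.31 RPKM, 1.14 to 1.499). This order rests on the deposited length of INS-IGF2, 5361 bases. With the 1826 bases of its exons in GENCODE 29, its level would be 2.50 RPKM (1.96 to 3.13) after knockdown and 14.4 RPKM (13.2 to 15.6) in control cells, above INSR in both columns. That value keeps all reads of the row, since any outside those exons could not be taken out. INSR was left at its deposited length of 9801 bases. The order of INS-IGF2 and INSR in the knockdown column is therefore not settled.

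The binding proteins were split, with 3 of the 6 higher and 3 lower after knockdown and a median log2 ratio of 0.07. IGFBP1 had by far the largest ratio among them. It encodes a small secreted protein best known from liver and decidua, whose gene is repressed by insulin and induced by FOXO factors and stress. IGFBP1 had 717 reads after knockdown and 234 in the control column, which is 42.7 CPM (39.6 to 45.9) against 11.6 CPM (10.2 to 13.2). The knockdown column was the higher one and the intervals did not overlap. The log2 ratio was 1.87 (1.66 to 2.09), a 3.67-fold higher level, and 99.4% of all measured genes had a lower ratio. Of the hepatocyte markers, ALB had 4 reads in each column (0.11 and 0.09 RPKM) and TTR 0 and 2 (0 and 0.11 RPKM). APOA2, also listed as a hepatocyte marker, has no row. IGFBP1, at 26.48 and 7.08 RPKM, was far above ALB and TTR per length in both columns.

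IGFBP3 and IGFBP4 were the most abundant of the 10 genes and differed in opposite directions. IGFBP3, the main carrier of IGFs in blood, had 17506 reads after knockdown and 16766 in the control column, or 1042 CPM (1027 to 1058) and 834 CPM (822 to 847). Its log2 ratio was 0.32 (0.29 to 0.35), or 1.25-fold higher. IGFBP4, which mostly inhibits IGF action until it is cut by the protease PAPPA, had 6860 and 12422 reads, or 408 CPM (399 to 418) and 618 CPM (607 to 629). The log2 ratio came to -0.60 (-0.64 to -0.55), which is 1.51-fold lower, and 8.75% of all measured genes had a lower ratio. With column totals in place of TMM the IGFBP4 ratio was -0.57, short of 1.5-fold. The narrow intervals of both genes follow from their many reads, and the spread between cultures was not measured.

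The RefSeq promoters of IGFBP3 (chr7:45921223-45921522, minus strand) and IGFBP4 (chr17:40443200-40443499, plus strand) on GRCh38.p14 are printed because these were the pair of abundant binding protein genes that went opposite ways. Capitals again mark TATAAA.
IGFBP3 promoter: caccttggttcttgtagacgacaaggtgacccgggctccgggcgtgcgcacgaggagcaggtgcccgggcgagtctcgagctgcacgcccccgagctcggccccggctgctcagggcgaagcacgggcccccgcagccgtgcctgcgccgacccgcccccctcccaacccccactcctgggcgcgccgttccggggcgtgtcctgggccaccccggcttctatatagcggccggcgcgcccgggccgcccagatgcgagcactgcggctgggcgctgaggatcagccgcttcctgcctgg
IGFBP4 promoter: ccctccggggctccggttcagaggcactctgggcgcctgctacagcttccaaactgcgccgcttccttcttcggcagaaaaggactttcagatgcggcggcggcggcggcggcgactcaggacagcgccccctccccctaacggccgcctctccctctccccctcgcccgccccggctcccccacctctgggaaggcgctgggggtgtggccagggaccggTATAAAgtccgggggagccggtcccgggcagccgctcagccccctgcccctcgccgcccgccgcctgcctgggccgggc
The windows are alike in base composition, with 74.7% G and C in that of IGFBP3 and 74.0% in that of IGFBP4. TATAAA begins 29 bases before the start of IGFBP4, and these exact letters are not in the window of IGFBP3. That window does hold the similar letters tatata, in the stretch ttctatatagcgg. The search took exact letters only, so it does not show that IGFBP3 lacks a TATA box. Promoters were matched for 7 of the 10 genes (not for IGF2, IGFBP1 and IGFBP7). GTAAACA, the core motif of forkhead factors such as the FOXO proteins, was found among them only in the window of IGFBP6, 186 bases before the start, and occurs on either strand in 3.42% of all promoters in the table.

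The other binding proteins had ratios nearer to 0. IGFBP2, often raised in the serum of patients with tumours, had 1211 reads after knockdown and 1231 in the control column, a log2 ratio of 0.24 (0.12 to 0.35). IGFBP6, which prefers IGF2 over IGF1, had 645 and 827 reads and a log2 ratio of -0.10 (-0.25 to 0.05), an interval that includes 0. IGFBP7, which binds IGFs weakly and insulin more strongly, had 202 and 331 reads and a log2 ratio of -0.45 (-0.71 to -0.20). IGFBP2 was therefore a little higher in the knockdown column, IGFBP7 lower, and IGFBP6 not separable at this depth. IGFBP5, outside the 10 genes, had 15 and 24 reads and a log2 ratio of -0.42 (-1.45 to 0.57). In the RefSeq gene order on GRCh38.p14 IGFBP1 and IGFBP3 are next to each other on chromosome 7, with 0 genes between them, as are IGFBP2 and IGFBP5 on chromosome 2. The neighbours IGFBP1 and IGFBP3 were both higher in the knockdown column, by log2 ratios of 1.87 and 0.32. The neighbours IGFBP2 and IGFBP5 had ratios of opposite sign, 0.24 and -0.42, with the interval of IGFBP5 including 0.

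Per length, the summed level of IGFBP1 to IGFBP7 was nearly the same in both columns, and its make-up was not. The 7 genes summed to 686 RPKM after knockdown and 671 RPKM in the control column. IGFBP3 made up 59.1% of the summed RPKM after knockdown and 47.4% in the control column, while IGFBP4 made up 27.3% and 41.3%. The RPKM ratio of IGFBP3 to IGFBP4 was 2.17 after knockdown and 1.15 in the control column. Together these genes held 86.4% and 88.6% of the sum. IGFBP1 held 3.86% of the summed RPKM after knockdown and 1.05% in the control column. IGFBP6 held 5.93% and 6.36%, IGFBP2 2.42% and 2.06%, IGFBP7 1.36% and 1.87%, and IGFBP5 0.0219% and 0.0283%.

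**Figure D3:**
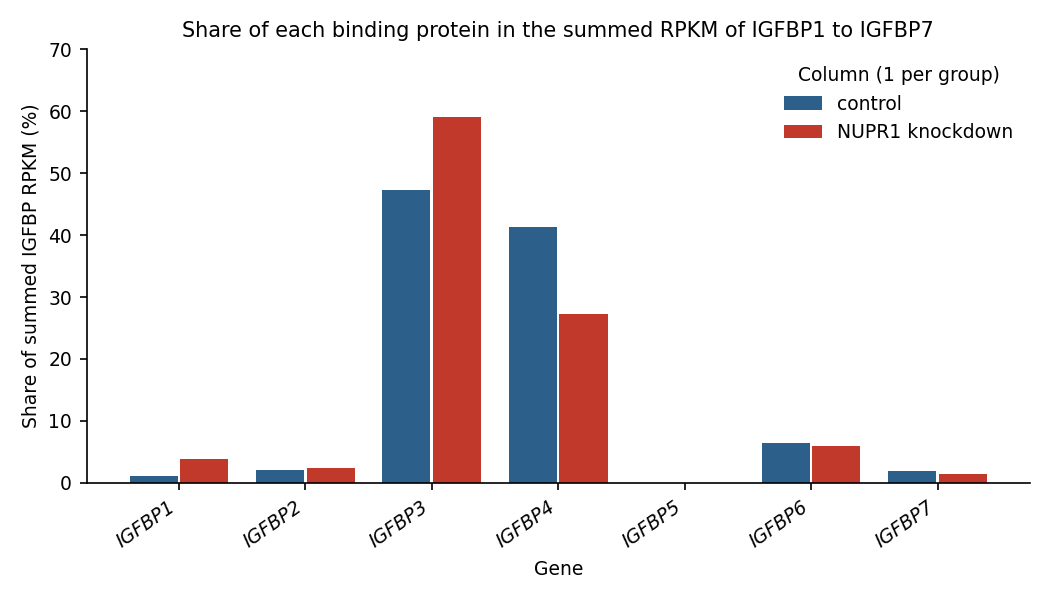
Share of each gene in the summed RPKM of IGFBP1 to IGFBP7, in percent, in the control column (blue bars) and the knockdown column (red bars), with 1 column per group and no error bar. IGFBP3 is the tallest in both columns (47.4% and 59.1%), IGFBP4 is lower in the knockdown column (27.3% against 41.3%), and IGFBP1 is higher there (3.86% against 1.05%).

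In the order of RPKM among the 10 genes, with the deposited lengths, IGFBP3, IGFBP4 and IGFBP6 held the same leading places in both columns. IGFBP1 was in place 7 in the control column at 7.08 RPKM (6.20 to 8.05) and in place 4 in the knockdown column at 26.48 RPKM (24.6 to 28.5). In the control column IGFBP2 (13.83 RPKM, 13.1 to 14.6), IGF1R (13.36 RPKM, 12.9 to 13.8) and IGFBP7 (12.54 RPKM, 11.2 to 14.0) followed each other with overlapping intervals, so their order is not settled by the reads. In the knockdown column no neighbours in the order overlapped.

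PAPPA, STC1 and STC2, which act on the binding proteins or on their protease, were lower in the knockdown column. Of the 8 genes listed as proteases of binding proteins and their inhibitors, 7 passed the low-count filter, with 2 higher, 5 lower and a median log2 ratio of -0.46, beside 0.00030 over all measured genes. The median is the value of ADAM12 (17 and 28 reads), whose interval includes 0 (-1.42 to 0.46), and it was -0.18 on the log2(RPKM + 1) scale. The intervals of 4 of the lower genes and 1 of the higher genes lay wholly on that side of 0. Such intervals were frequent in other lists too, with 4 above and 3 below 0 among the 10 measured brakes described below. Their share over all measured genes was not computed, so nothing was read from this count. PAPPA, the metalloproteinase that cuts IGFBP4, had 3098 reads after knockdown and 5602 in the control column. Its log2 ratio of -0.60 (-0.66 to -0.53) was close to that of IGFBP4, and it was -0.57 with column totals, short of 1.5-fold. STC1, which encodes stanniocalcin 1, an inhibitor of PAPPA, had 253 and 1208 reads and a log2 ratio of -1.996 (-2.20 to -1.80), which is 3.99-fold lower. STC2, a related inhibitor named after its values were seen, had a log2 ratio of -0.48 (-0.63 to -0.32). IGFBP4, PAPPA, STC1 and STC2 were thus each lower in the knockdown column, though these are single genes picked with their values known. Whether they are linked was not tested. ADAM9 had the highest RPKM of the list, 140.45 and 133.94, with a log2 ratio of 0.04. The gene of the list that was 1.5-fold higher, ADAM28, was also named after its values were seen and had 19 and 15 reads, with an interval that includes 0 (-0.45 to 1.68).

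Adaptors, relay and brakes inside the cell stayed close to the middle of all genes. Of the 13 adaptors 12 were measured, with 4 higher, 8 lower and a median log2 ratio of -0.05. GRB10, an adaptor that restrains both receptors, was the adaptor past 1.5-fold, with 540 reads after knockdown and 992 in the control column and a log2 ratio of -0.62 (-0.77 to -0.47). PTPN11, the phosphatase SHP2, was the most abundant per length in the control column and second to GRB2 in the knockdown column, at 43.64 and 47.65 RPKM. All 21 genes of the PI3K and AKT relay were measured, with 10 higher and 11 lower and a median of -0.01. PIK3CD, a catalytic subunit of PI3K found mainly in leukocytes, was the relay gene past 1.5-fold, with 72 and 142 reads and a log2 ratio of -0.72 (-1.15 to -0.30), and RHEB, the GTPase that activates mTOR, had the highest RPKM (52.57 and 43.97). Of 11 brakes 10 were measured, with 6 higher and 4 lower and a median of 0.07. PTPN1, the phosphatase that acts on both receptors, led them per length at 27.68 and 26.07 RPKM. SOCS2, a feedback inhibitor of cytokine and growth hormone signalling named after its values were seen, had 40 and 151 reads and a log2 ratio of -1.66 (-2.20 to -1.15), with a mean of 4.95 CPM, just under 5 CPM. Of the 3 mRNA-binding proteins that bind IGF2 transcripts, IGF2BP3 was higher (0.38), IGF2BP2 lower (-0.52) and IGF2BP1, the most abundant at 12.88 and 12.64 RPKM, had a log2 ratio of -0.0015 that turned positive with column totals. The median of these 3 was that of IGF2BP1.

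Of the 13 FOXO targets listed, 11 were measured, and 9 of these had a ratio above 0, beside 50.04% of all measured genes. The counting interval lay wholly above 0 for 5 genes (IGFBP1, CCNG2, CITED2, CDKN1B and BCL6), wholly below it for PDK4, and included it for the other 5. The share of all measured genes with such intervals was not computed, so nothing was read from this count. The median log2 ratio of 0.19 is the value of INSR, whose interval includes 0, and was 0.12 on the log2(RPKM + 1) scale. The list holds IGFBP1 and INSR, which are both among the 9, so it is not separate from the genes described above. Nothing was therefore read from the count of 9 either. Also among the 9, IRS2 (0.07), SESN1 (0.09) and BCL2L11 (0.05) had ratios near 0, with intervals that include 0. Besides IGFBP1, 3 genes were at least 1.5-fold higher, beside 7.29% of all measured genes. CCNG2, an atypical cyclin, had 205 reads after knockdown and 133 in the control column and a log2 ratio of 0.88 (0.56 to 1.21). CITED2, a transcriptional co-regulator, had 189 and 124 reads and a ratio of 0.87 (0.53 to 1.21). CDKN1B, which encodes the cell cycle inhibitor p27, had 798 and 615 reads and a ratio of 0.63 (0.48 to 0.79). These 3 genes thus lay on the same side as IGFBP1, with smaller ratios. PDK4, a pyruvate dehydrogenase kinase and the most abundant of the list at 106.9 and 144.65 RPKM, went the other way at -0.47 (-0.51 to -0.42).

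The CCN genes were once counted as low-affinity relatives of the IGFBPs. Of 6 listed, 4 were measured, with 3 lower, 1 higher and a median log2 ratio of -0.51. Over all 14175 measured genes, 7082 were lower and 7093 higher, and nothing was read from the count of 4 genes. WISP2 and NOV were named after their values were seen. WISP2 had 97 and 151 reads and a ratio of -0.38 (-0.76 to -0.002). NOV was the higher gene, with 26 and 21 reads and a ratio of 0.57 (-0.32 to 1.47). CTGF, a matricellular protein of connective tissue growth, had 178 reads after knockdown and 541 in the control column and a log2 ratio of -1.34 (-1.60 to -1.10). CYR61, its close relative and the most abundant of the list at 10.34 and 15.69 RPKM, had a ratio of -0.63 (-0.81 to -0.45). WISP3 has no row. In the list of other binding proteins, 2 of 3 genes were measured, IGFBP5 and IGFBPL1, with 1 lower and 1 higher and a median of -0.03. IGFALS, the acid-labile subunit that joins IGFBP3 in blood, had 0 and 2 reads and gets no fold. IGFBPL1 had 16 and 15 reads (0.27 and 0.21 RPKM).

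Over all 81 pathway genes outside the 10, 69 were measured, 31 of them higher and 38 lower in the knockdown column, with a median log2 ratio of -0.01. At 1.5-fold 4 were higher and 8 lower, beside 7.29% and 9.07% of all measured genes. With column totals the split was 36 higher and 33 lower, because 5 genes close to 0 changed sign (IGF2BP1, IGF2R, IRS1, PDPK1 and PHLPP1). On the log2(RPKM + 1) scale IGFBP4 (-0.57), PAPPA (-0.54), GRB10 (-0.51), CYR61 (-0.56), PIK3CD (-0.34) and CCNG2 (0.54) were short of 1.5-fold. The pathway as a whole was thus near the middle of all genes, with INS-IGF2 and STC1 at the low end and IGFBP1 at the high end.

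**Figure D4:**
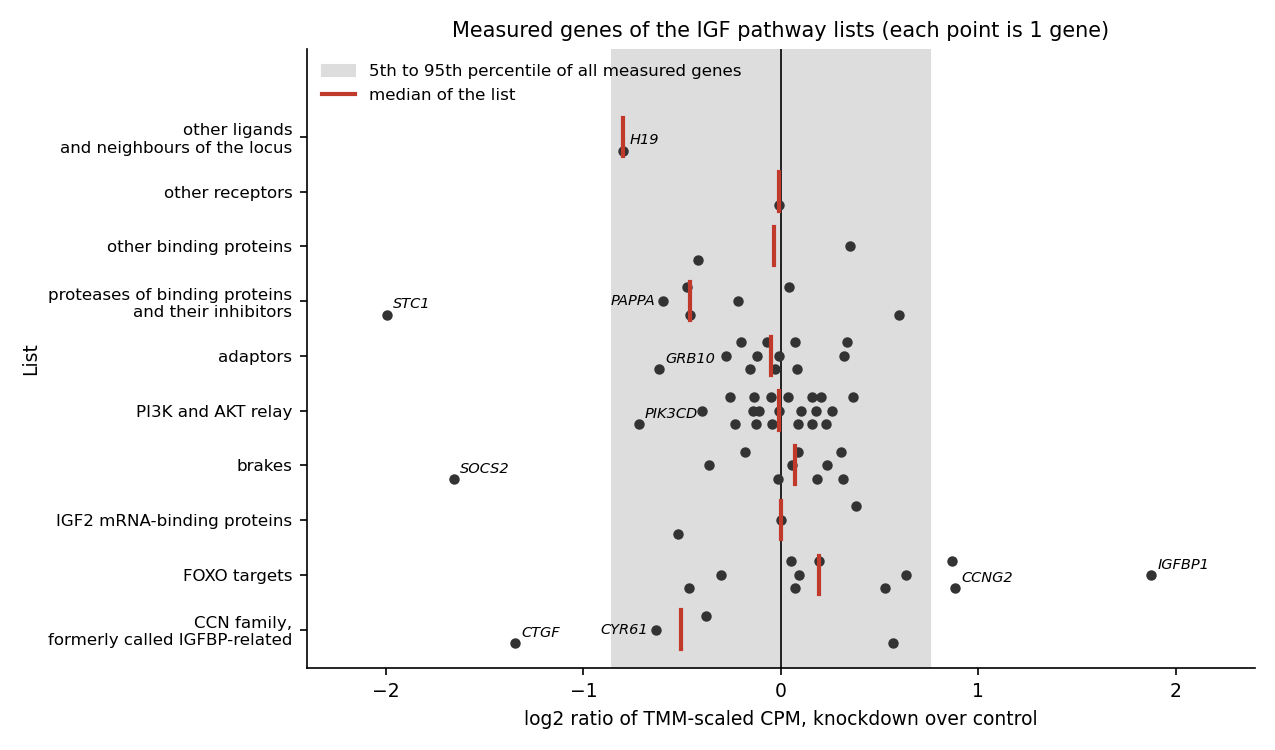
Log2 ratio of TMM-scaled CPM, knockdown over control, for each measured gene of the 10 pathway lists (points), with the median of each list (red line) and the 5th to 95th percentiles of all measured genes (grey band, -0.86 to 0.75). STC1 (-1.996), SOCS2 (-1.66) and CTGF (-1.34) lie below the band, and IGFBP1 (1.87), CCNG2 (0.88) and CITED2 (0.87) lie above it.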

How the data were processed

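The authors deposited a table of whole-number read counts per gene and a table of RPKM values, each with 1 column per group, in place of the 4 libraries. Per the submitters' processing notes, TopHat2 2.0.10, edgeR 3.2.2 and hg19 were used, with no role or order named, and how single-end and paired-end libraries were combined and how shared reads were assigned are not stated there. There were 0 further value columns. From the counts, 3 rows without a usable gene length were left out (0.0872% and 0.0509% of the reads). The knockdown column, whose spelling differs from its library titles, was matched by its shared start.

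TMM factors (1.01 and 0.991) came from edgeR 4.0.16 in R 4.3.3, over the rows that passed filterByExpr (minimum count 10, minimum total 15). With 0 residual degrees of freedom no test was made. Poisson and exact conditional (Clopper-Pearson) intervals at 95% came from scipy 1.17.1 in Python 3.11.15, without molecular identifiers, so they cover counting error only, and 1 read was 0.0595 or 0.0498 CPM. The procedure was run on simulated Poisson counts, the same model that the intervals assume. That run therefore cannot show how the intervals hold under spread between cultures, mixed libraries or shared reads. Alternatives were DESeq2 1.42.0 size factors, column totals, log2(RPKM + 1) and log2(RPKM + 0.1), a control column thinned to the knockdown total, other thresholds and, added after seeing the data, TMM over all rows and the GENCODE length of INS-IGF2. Named genes were the 10, NUPR1 and, of each list, up to 6 with a mean of 5 CPM past 1.5-fold and the highest RPKM. Other genes given with values or by name (among them IGF1, IGF2-AS, IGFBP5, IGFALS, IGF2BP2, IGF2BP3, STC2, ADAM12, ADAM28, SOCS2, GRB2, BCL6, IRS1, PDPK1, PHLPP1 and single cell type markers) lie outside this rule and were chosen after their values were seen. The 10 genes and the 10 lists were chosen with earlier results of these data known. Sequences are from RefSeq and GENCODE 29 on GRCh38, another build than the tables.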

Additional observations from a re-analysis of the deposited data

How the results depend on the processing

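No paired analysis was possible because each group is 1 column, and leaving out each library in turn was not run for the same reason. Each of the 10 genes kept its direction under all alternatives run. The summed ligand ratio of -2.56 became -3.20 with IGF2 alone (1 and 11 reads). Of the 2 genes past 2-fold, 1 was left with 5 CPM required in both columns, since INS-IGF2 is at 4.47 CPM in the knockdown column. Over all genes 227 passed 2-fold, against 112 with log2(RPKM + 1), 873 at 1.5-fold and 564 with a mean of 1 CPM. As shares of reads IGFBP3 made up 64.5% and 52.7% and IGFBP4 25.3% and 39.0%. On log2(RPKM + 1) IGF2 was at -0.11, since the constant exceeds its level. The median of the other ligands list, 1 measured gene, turned from -0.80 to 0.26 without the filter, which adds genes of 0 to 3 reads. The median of the other receptors, IGF2R alone, turned to 0.02 with column totals. At this depth, among the 10 genes, intervals are widest for IGF2 and INS-IGF2, and spread between cultures was not measured.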
